A study of Homo sapiens with 6 samples.

Results

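The genes followed here belong to the MHC class I presentation pathway and number 10: B2M, HLA-E, HLA-F, TAP1, TAP2, TAPBP, PSMB8, PSMB9, ERAP1 and NLRC5. They were chosen by name, and every probe set whose only gene symbol in the platform annotation was a member was used, which gave 48 of the 49395 probe sets of the array. The 10 genes stood among 18132 genes that had at least 1 such probe set. Their transcripts were read on 6 PrimeView arrays (Affymetrix) that held RNA of U87, a human glioma cell line grown in culture. The IL-33 group had 3 stably transfected clones, numbered 3, 5 and 9, that carried full-length human IL-33 in the pcDNA vector. The ΔNLS group had 2 clones, numbered 3 and 4, that carried IL-33 without its nuclear localization signal in the same vector. The control was 1 array of U87 cells with the empty pcDNA vector. IL-33 is an IL-1 family cytokine that also enters the nucleus and binds chromatin, and the comparisons asked what each form of it did to gene expression in the glioma cells. A clone stood for a replicate of its construct. Nothing in the sources says whether separate cultures were grown for each array, so a p-value here measures no more than the spread between clones, which may be partly technical. The control, with 1 array, was taken to vary as the clones did.

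MHC class I molecules show short peptides from inside the cell to CD8+ T cells and natural killer cells. The proteasome cuts proteins into peptides, the transporter TAP carries the peptides into the endoplasmic reticulum, aminopeptidases trim them there, and tapasin helps to load them onto a heavy chain paired with beta-2 microglobulin. Many of these genes are induced together by interferon gamma, through factors that bind interferon-stimulated response elements, and by the transactivator NLRC5. Tumor cells, glioma among them, are known for differences in the level of this pathway.

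Values are deposited log2 normalized intensities, so a difference of 1 is a 2-fold difference. For a gene with several probe sets, the brightest on average was used, and levels are compared only within a probe set. A level above 4.80, the 95th percentile of 341 olfactory receptor genes, was called above background. The IL33 gene itself was at 8.38, 6.40 and 9.50 in IL-33 clones 3, 5 and 9, at 6.50 and 6.62 in ΔNLS clones 3 and 4, and at 3.46 in the control, so all 5 clones were above the control as labelled. The arrays of the control and the IL-33 clones had nearly the same distribution of values, with a mean difference between sorted values of 0.0084 to 0.023. The ΔNLS arrays had another distribution, with a mean difference of 0.154 to 0.161 from the other 4 arrays and a median over all probe sets of 5.43, against 5.61 to 5.62 on the rest. The ΔNLS construct and this difference between array sets cannot be told apart. Of the markers of the labelled cell type, VIM was between 13.7 and 13.9 on all arrays, CD44 was between 11.9 and 12.7, and 5 to 7 of 8 glioma and glial markers were above background on each array. S100B was below background on every array, at 3.83 to 4.57. Other markers of this list differed between groups. NES, which encodes nestin, was at 5.73, 5.89 and 5.12 in IL-33 clones 3, 5 and 9, at 8.10 and 8.09 in ΔNLS clones 3 and 4, and at 7.28 in the control. It was the 1 marker of the 8 that passed in IL-33 clones against control (-1.70 ± 0.29, adjusted p = 0.0308, limma). In ΔNLS clones against control 3 passed, all lower, namely GFAP (-0.57), EGFR (-1.21) and OLIG2 (-1.58). OLIG2 was above background only in the control, at 5.23, and was at 3.46 to 4.67 in the clones. Between IL-33 and ΔNLS clones 4 were higher and 3 lower. PTPRC, the defining leukocyte marker, was below background on every array, at 2.14 to 2.25, as were CD3E, CD14 and ITGAM. The summed level of 7 measured leukocyte markers was 7.40 to 7.56 in the IL-33 clones, 6.99 to 7.04 in the ΔNLS clones and 8.37 in the control on the log2 scale. This sum adds different probe sets and is only a description. CSF1R, which encodes the receptor of colony-stimulating factor 1, was at 6.04, 5.87 and 5.87 in IL-33 clones 3, 5 and 9, at 5.21 and 5.32 in ΔNLS clones 3 and 4, and at 7.84 in the control. It was lower than in the control in the IL-33 clones (-1.91, adjusted p = 0.00341, limma) and in the ΔNLS clones (-2.58, adjusted p = 0.000833). ITGAM was higher than in the control in both sets of clones (0.53 and 0.45, adjusted p = 0.0363 and 0.0213), and AIF1 was lower in the ΔNLS clones (-0.63, adjusted p = 0.0205). The part of these marker differences in the members' results was not tested. In bulk RNA of 1 cultured cell line, fewer cells that express a gene and less of its RNA per cell cannot be told apart.

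Promoters are shown first because the genes are known to share control elements. RefSeq windows on GRCh38.p14, from 250 bases before to 50 bases after a start site, were found for 8 of the 10 genes, 11 windows in all. HLA-E and NLRC5 were not among them. Letters like an interferon-stimulated response element (ISRE), GAAA followed by any 2 bases and a further GAAA on either strand, stood in 7 of the 11 windows and in 7 of the 8 genes, all but PSMB9, against 3.57% of 35116 promoter windows of all genes. Letters like a κB site, GGG followed by any 2 bases and TTTCC on either strand, stood in 3 of the 11 windows, against 1.91% of all windows. The 3 genes were B2M, TAP1 and TAPBP. The ISRE-like and κB-like matches did not overlap each other, but the ISRE-like matches of B2M, TAP1 and TAPBP each overlapped a second match of the same kind. The CCAAT box, CCAAT on either strand, stood in 5 of the 11 windows, in 5 genes, against 34.6% of all windows. Its matches in TAP1 and PSMB9 are the same bases, which lie between the start sites of these genes. The core of a cyclic AMP response element, TGACG on either strand, stood in 4 of the 11 windows, in 4 genes, against 24.6%. Such a match describes letters and not a bound site. The 250 bases before the start site are printed for 4 genes that carry the ISRE-like letters and whose levels went different ways below, 5′ to 3′ on the strand of the gene, with ISRE-like and κB-like matches in capitals. HLA-F lies at chr6:29723184-29723433 on the plus strand, TAP2 at chr6:32838740-32838989 on the minus strand, TAP1 at chr6:32853705-32853954 on the minus strand and B2M at chr15:44711267-44711516 on the plus strand.
HLA-F: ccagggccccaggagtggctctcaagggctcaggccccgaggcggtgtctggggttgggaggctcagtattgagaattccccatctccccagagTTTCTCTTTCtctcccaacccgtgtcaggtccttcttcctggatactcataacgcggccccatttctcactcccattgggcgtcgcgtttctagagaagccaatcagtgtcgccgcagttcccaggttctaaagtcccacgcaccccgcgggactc
TAP2: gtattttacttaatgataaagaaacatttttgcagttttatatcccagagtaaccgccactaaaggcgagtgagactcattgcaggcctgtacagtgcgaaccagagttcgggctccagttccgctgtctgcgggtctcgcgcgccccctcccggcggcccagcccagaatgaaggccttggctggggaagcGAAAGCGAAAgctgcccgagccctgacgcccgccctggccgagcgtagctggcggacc
TAP1: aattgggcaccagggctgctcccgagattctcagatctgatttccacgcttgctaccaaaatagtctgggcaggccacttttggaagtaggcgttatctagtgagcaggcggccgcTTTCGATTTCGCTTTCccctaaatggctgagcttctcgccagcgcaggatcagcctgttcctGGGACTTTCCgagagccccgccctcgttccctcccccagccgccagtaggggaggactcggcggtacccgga
B2M: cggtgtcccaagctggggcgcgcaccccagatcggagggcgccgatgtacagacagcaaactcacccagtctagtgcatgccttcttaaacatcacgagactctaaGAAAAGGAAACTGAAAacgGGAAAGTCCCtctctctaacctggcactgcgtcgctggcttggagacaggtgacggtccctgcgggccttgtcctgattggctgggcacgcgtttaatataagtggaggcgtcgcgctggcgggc
Counted from the start site, the ISRE-like match began at -156 in HLA-F and at -58 in TAP2. The first of the overlapping matches began at -134 in TAP1 and at -144 in B2M. The start sites of TAP1 and PSMB9 lie 488 bases apart on opposite strands, so the bases before these genes are shared.

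**Figure D1:**
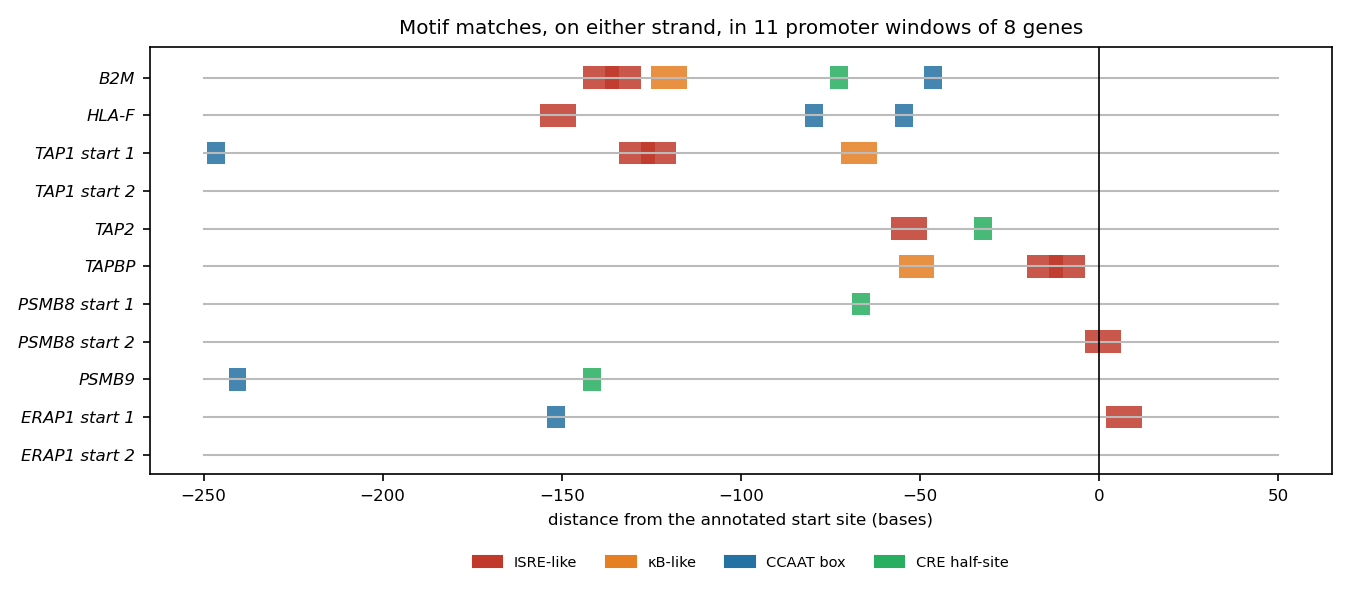
Matches of 4 sequence motifs in 11 RefSeq promoter windows of 8 genes, with distance from the annotated start site in bases on the x axis and 1 line per window. ISRE-like matches (red) stand in 7 windows, the farthest at -156 in HLA-F, and no window of PSMB9 holds one.

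As deposited, the members that passed did not all go the same way. In the IL-33 clones none of the 10 genes passed the test against the control, and 2 of them, TAP2 and NLRC5, had an unadjusted p under 0.05. In the ΔNLS clones, NLRC5, HLA-F and PSMB9 were higher than in the control, while TAP2 and ERAP1 were lower. That split depended on the scaling, since 4 members were higher and 0 lower with each array centred on its median. Between the constructs, TAP1, TAP2 and ERAP1 were higher in the IL-33 clones than in the ΔNLS clones, and NLRC5, PSMB8 and PSMB9 were lower. NLRC5 in the ΔNLS clones was the 1 difference that reached 2-fold against the control.

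These counts need the background of the whole array beside them. Over all genes, 7.65% passed at an adjusted p under 0.05 in IL-33 clones against control (limma, Benjamini-Hochberg adjustment), 3.65% of all genes being higher and 4% lower, and 26.3% had an unadjusted p under 0.05. Those 1387 calls depended on which arrays were in the fit. There were 1421 without IL-33 clone 3 and 1650 without IL-33 clone 5. Without IL-33 clone 9 there were 341, and without ΔNLS clone 3, without ΔNLS clone 4 or with only the groups compared there were 0, although 4441 to 4445 genes still had an unadjusted p under 0.05 (limma). For ΔNLS clones against control 38.3% of all genes passed, 14.8% higher and 23.5% lower, beside 5 of 10 members. This became 19.9% without ΔNLS clone 3 and 21% without ΔNLS clone 4, where NLRC5 was the 1 member that passed. For IL-33 clones against ΔNLS clones 47.5% passed, 31.4% higher and 16.1% lower, beside 6 of 10 members, and 26.1% passed without either ΔNLS clone, beside 4 members without clone 3 and 3 without clone 4. The median difference over the members was 0.18 for IL-33 clones against control, beside 0.04 over all genes. It was 0.27 for ΔNLS clones against control, beside -0.09, and -0.19 for IL-33 clones against ΔNLS clones, beside 0.13. The arrays of a group all lay above the control for 5 of 10 members in the IL-33 clones, beside 38.7% of all genes, and all lay below it for 0 members, beside 27.6%. In the ΔNLS clones 6 members lay wholly above the control, beside 37.8% of all genes, and 3 wholly below it, beside 51.4%. In IL-33 clones against ΔNLS clones 3 members lay wholly higher, beside 44.4%, and 4 wholly lower, beside 25.4%. The split of all genes that passed depended on the scaling of the arrays. For ΔNLS clones against control it was 2680 higher and 4267 lower as deposited, 3615 higher and 2985 lower after quantile normalization, and 4241 higher and 2822 lower with each array centred on its median. For IL-33 clones against ΔNLS clones it was 5697 higher and 2924 lower as deposited, 3783 higher and 4007 lower after quantile normalization, and 3538 higher and 4886 lower after centring. The median of all genes moved with it, to 0.05 and 0.09 for ΔNLS clones against control and to -0.01 and -0.06 for IL-33 clones against ΔNLS clones.

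**Figure D2:**
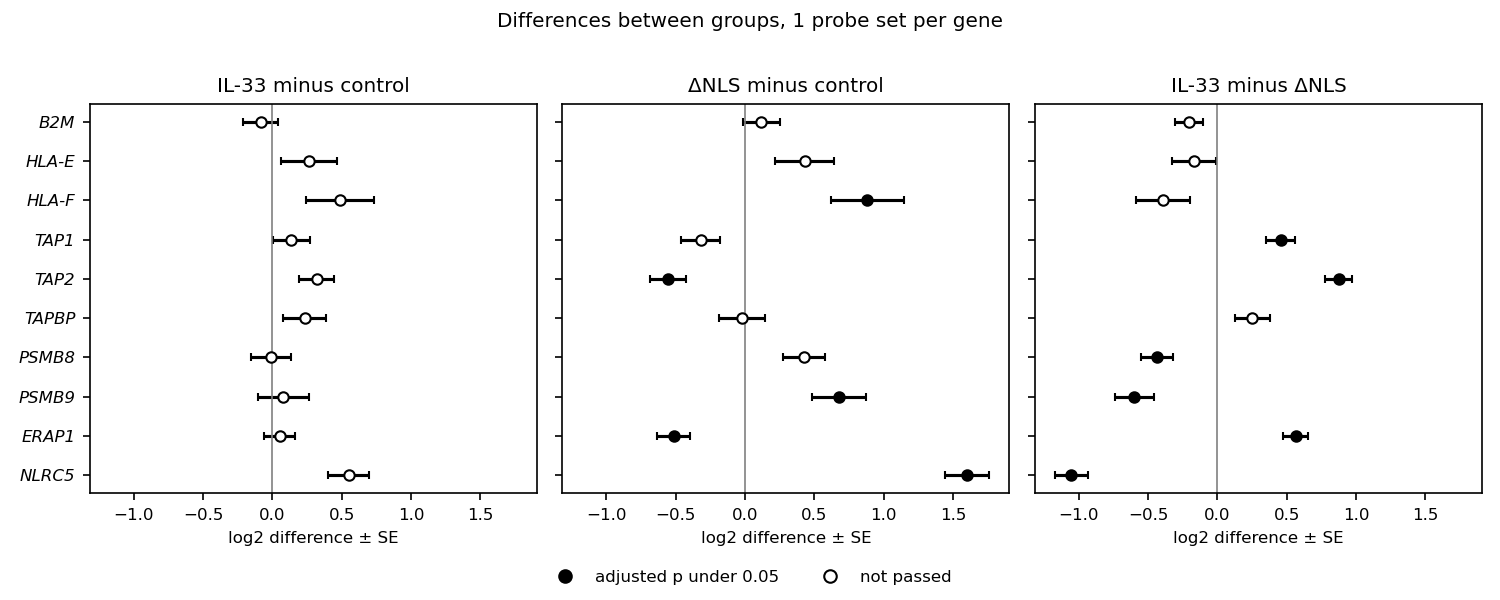
Fitted log2 difference (x axis) with its standard error for each of the 10 genes in the 3 comparisons, IL-33 minus control, ΔNLS minus control and IL-33 minus ΔNLS. Filled points had an adjusted p under 0.05: 0 of 10 genes in the first panel, 5 in the second and 6 in the third, with NLRC5 farthest from 0 in the second, at 1.60.

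NLRC5, the transactivator of the class I genes, had the widest range of the 10 genes. It was at 6.67, 6.55 and 6.37 in IL-33 clones 3, 5 and 9, at 7.54 and 7.62 in ΔNLS clones 3 and 4, and at 5.98 in the control. The 3 groups did not overlap, with the ΔNLS clones highest, the IL-33 clones between and the control lowest. NLRC5 was 3.04-fold higher in the ΔNLS clones than in the control, a log2 difference of 1.60 ± 0.16 (SE, 2 clones and 1 array, adjusted p = 0.00241, limma). The IL-33 clones were 0.55 ± 0.15 above the control, which missed the threshold (adjusted p = 0.0805), and differed from the ΔNLS clones by -1.05 ± 0.12 (adjusted p = 0.00195). The ΔNLS calls of NLRC5 were kept in all 12 alternatives that refitted it, with an adjusted p of 0.00174 to 0.0307 against the control and 0.00137 to 0.0332 against the IL-33 clones. Its second probe set was above background in 1 array, ΔNLS clone 4 at 4.89, and read 3.75 to 3.96 in the IL-33 clones, 4.60 in ΔNLS clone 3 and 3.72 in the control. NLRC5 lies on chromosome 16, whose 547 other genes above background had a median of 0.18 and 0.19 above the control in ΔNLS clones 3 and 4, beside -0.02 and -0.03 over all chromosomes.

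The class I heavy chains measured by the members are HLA-E, which presents leader peptides to the NKG2A receptor of natural killer cells, and HLA-F, a nonclassical chain that can be found without peptide. HLA-F was at 6.55, 6.40 and 7.002 in IL-33 clones 3, 5 and 9, at 7.15 and 6.94 in ΔNLS clones 3 and 4, and at 6.16 in the control. All 5 clones were above the control, and the range of the IL-33 clones reached into that of the ΔNLS clones. HLA-F was 1.84-fold higher in the ΔNLS clones than in the control (log2 difference 0.88 ± 0.26, adjusted p = 0.0438, limma), while the IL-33 clones were 0.49 ± 0.25 above the control (adjusted p = 0.282). The ΔNLS call of HLA-F was kept in 7 of 12 alternatives. The mean of all probe sets ended it, as did leaving out the probe sets marked x, whose probes can match other transcripts, IL-33 clone 3 (adjusted p = 0.0669), ΔNLS clone 3 (adjusted p = 0.208) or ΔNLS clone 4 (adjusted p = 0.140). Of its 10 probe sets 4 were above background on all arrays, and these 4 were 0.40 to 0.68 above the control in the IL-33 clones and 0.29 to 0.88 in the ΔNLS clones. The other 6 were below background on every array. Of these dim probe sets, 1 was lower in the IL-33 clones than in the control in the fit over all probe sets. It was the 1 call among all 48 probe sets in that comparison, where 7.29% of the array passed, 3.2% higher and 4.09% lower.

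HLA-E was at 9.14, 8.79 and 9.25 in IL-33 clones 3, 5 and 9, at 9.33 and 9.12 in ΔNLS clones 3 and 4, and at 8.80 in the control. On this probe set, which carries the x mark, IL-33 clone 5 was as low as the control, and the other 4 clones were higher. On the HLA-E probe sets without the mark, IL-33 clone 5 was above the control. It read 8.49 against 7.98 on the brighter of these and 7.25 against 7.19 on the dimmer. By the brightest probe set of all, the difference from the control was 0.43 ± 0.21 in the ΔNLS clones and 0.26 ± 0.20 in the IL-33 clones. Neither passed (adjusted p = 0.162 and 0.492, limma). Without IL-33 clone 5, which sets part of the shared spread, the ΔNLS difference passed (adjusted p = 0.0483). All 6 HLA-E probe sets were above background, and each was higher in the ΔNLS clones (0.21 to 0.66) and in the IL-33 clones (0.13 to 0.74) than in the control. In the fit over all probe sets, 1 of the 6, marked x, passed in ΔNLS clones against control (0.66, adjusted p = 0.0459) and was lower in the IL-33 clones than in the ΔNLS clones (-0.53, adjusted p = 0.0311).

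B2M encodes beta-2 microglobulin, the light chain that all class I heavy chains need to reach the surface. It was at 12.99, 12.74 and 13.05 in IL-33 clones 3, 5 and 9, at 13.13 in both ΔNLS clones, and at 13.01 in the control. IL-33 clone 5 was the lowest array on this probe set, and both ΔNLS clones were above the other 4 arrays. The brightest probe set did not pass in any of the 3 comparisons. Its difference was -0.09 ± 0.13 for IL-33 clones against control, 0.12 ± 0.13 for ΔNLS clones against control and -0.20 ± 0.10 for IL-33 clones against ΔNLS clones (adjusted p = 0.754, 0.511 and 0.140, limma). The sign of the comparisons with the ΔNLS clones turned after quantile normalization, to -0.13 against the control and 0.04 between the constructs. After centring the arrays on their medians, the difference between IL-33 and ΔNLS clones was -0.39 and passed (adjusted p = 0.0231), and ΔNLS clones against control was 0.30. Other B2M probe sets gave larger differences than the brightest. Over all 8, the difference ran from -0.14 to -0.03 for IL-33 clones against control, from -0.05 to 0.48 for ΔNLS clones against control and from -0.63 to 0.02 for IL-33 clones against ΔNLS clones. In the fit over all probe sets, 1 was higher in the ΔNLS clones than in the control (0.48, adjusted p = 0.0399). Between the constructs 3 were lower in the IL-33 clones (-0.36, -0.51 and -0.63, adjusted p = 0.0460, 0.00947 and 0.00545). Of the 8 B2M probe sets, 2 had identical values on all arrays and so are not separate measurements. The counts of probe sets given here include both.

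**Figure D3:**
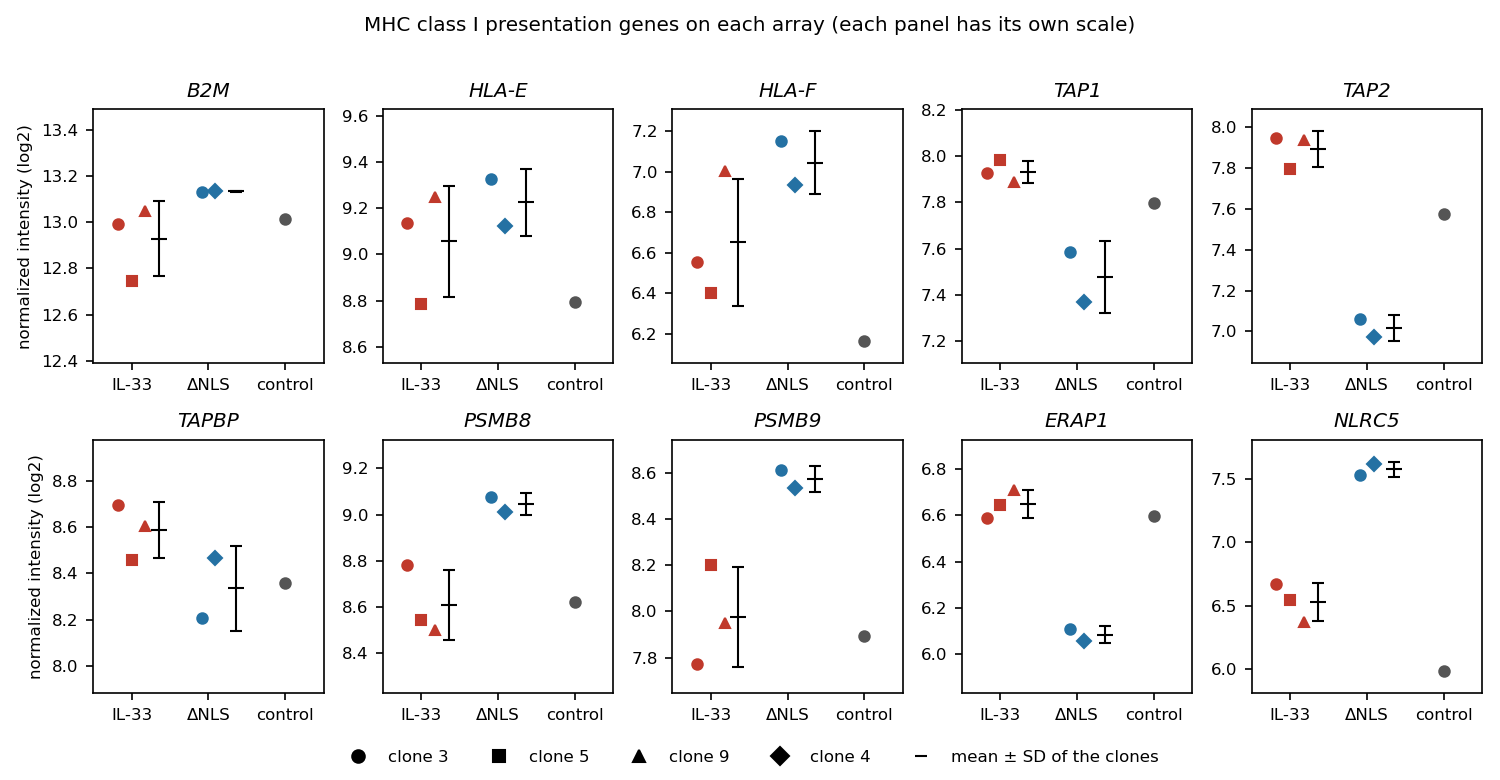
Normalized intensity (log2, y axis, its own scale in each panel) of the 10 genes on each array, with points for each IL-33 clone, each ΔNLS clone and the control, and with the mean ± SD of the clones. For TAP2 and TAP1 the IL-33 clones lie above the control and the ΔNLS clones below it, while for NLRC5 both sets of clones lie above the control.

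TAP1 and TAP2 form the transporter that moves peptides into the endoplasmic reticulum. TAP2 was at 7.95, 7.79 and 7.94 in IL-33 clones 3, 5 and 9, at 7.06 and 6.97 in ΔNLS clones 3 and 4, and at 7.57 in the control. Every IL-33 clone was above the control and every ΔNLS clone below it. TAP2 was 1.83-fold higher in the IL-33 clones than in the ΔNLS clones (log2 difference 0.88 ± 0.10, adjusted p = 0.00195, limma), and this call was kept in all 12 alternatives. Against the control, the ΔNLS clones were at 0.68-fold (-0.56 ± 0.13, adjusted p = 0.0219), a call lost after centring the arrays (adjusted p = 0.0713) and without ΔNLS clone 3 or ΔNLS clone 4 (adjusted p = 0.0631 and 0.0782). The IL-33 clones were 0.32 ± 0.12 above the control (adjusted p = 0.174). All 4 probe sets of TAP2 were above background, and each of them was lower in the ΔNLS clones (-0.90 to -0.13) and higher in the IL-33 clones (0.08 to 0.32) than in the control.

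TAP1 was at 7.93, 7.99 and 7.89 in IL-33 clones 3, 5 and 9, at 7.59 and 7.37 in ΔNLS clones 3 and 4, and at 7.80 in the control. The arrays of the 3 groups were ordered as for TAP2. TAP1 was 1.37-fold higher in the IL-33 clones than in the ΔNLS clones (0.46 ± 0.10, adjusted p = 0.0159, limma), a call lost with the mean of its probe sets (adjusted p = 0.182), after centring (adjusted p = 0.0782) and without ΔNLS clone 4 (adjusted p = 0.0675). Neither the IL-33 clones (0.14 ± 0.13, adjusted p = 0.597) nor the ΔNLS clones (-0.32 ± 0.14, adjusted p = 0.122) passed against the control. The second probe set of TAP1, also above background, was at 6.95, 6.96 and 6.82 in IL-33 clones 3, 5 and 9, at 7.06 and 7.03 in ΔNLS clones 3 and 4, and at 6.72 in the control. There the ΔNLS clones were above the control by 0.33, so the 2 probe sets of TAP1 went opposite ways.

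TAPBP encodes tapasin, which bridges the heavy chain to the transporter. It was at 8.70, 8.46 and 8.61 in IL-33 clones 3, 5 and 9, at 8.20 and 8.47 in ΔNLS clones 3 and 4, and at 8.36 in the control. The IL-33 clones were all above the control, and the ΔNLS clones lay on either side of it. The differences were 0.23 ± 0.16 for IL-33 clones against control, -0.02 ± 0.17 for ΔNLS clones against control and 0.25 ± 0.12 for IL-33 clones against ΔNLS clones, and none passed (adjusted p = 0.428, 0.929 and 0.143, limma). Those values are of the brightest probe set. A dimmer one was above background in the control and the ΔNLS clones but below it in the IL-33 clones. In the fit over all probe sets it was lower in the IL-33 clones than in the ΔNLS clones (-1.01, adjusted p = 0.00474, limma). Its difference of -0.79 from the control in the IL-33 clones did not pass (adjusted p = 0.0750). With the mean of the TAPBP probe sets all 3 signs turned. The sign of ΔNLS against control also turned with either scaling and without ΔNLS clone 3.

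PSMB8 and PSMB9 are catalytic subunits of the immunoproteasome, the form of the proteasome that interferon induces. PSMB9 was at 7.77, 8.20 and 7.95 in IL-33 clones 3, 5 and 9, at 8.61 and 8.53 in ΔNLS clones 3 and 4, and at 7.89 in the control. The ΔNLS clones were above all other arrays, and the IL-33 clones lay around the control. PSMB9 was 1.60-fold higher in the ΔNLS clones than in the control (0.68 ± 0.19, adjusted p = 0.0377, limma) and lower in the IL-33 clones than in the ΔNLS clones (-0.60 ± 0.14, adjusted p = 0.0184). In the fit over all probe sets, the next PSMB9 probe set above background did not pass against the control (0.46, adjusted p = 0.0883, limma). Nor did it pass between the constructs (-0.32, adjusted p = 0.0939). The remaining probe set was below background on every array. By the brightest probe set, the IL-33 clones did not pass against the control (0.08 ± 0.18, adjusted p = 0.858). Leaving out IL-33 clone 9, ΔNLS clone 3 or ΔNLS clone 4 ended the call against the control (adjusted p = 0.0694, 0.168 and 0.138) and the call between the constructs (adjusted p = 0.0560, 0.143 and 0.115).

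PSMB8 was at 8.78, 8.54 and 8.50 in IL-33 clones 3, 5 and 9, at 9.08 and 9.01 in ΔNLS clones 3 and 4, and at 8.62 in the control. As for PSMB9, the ΔNLS clones were above all other arrays. PSMB8 was lower in the IL-33 clones than in the ΔNLS clones (-0.44 ± 0.11, adjusted p = 0.0249, limma), a call that did not survive leaving out IL-33 clone 9, ΔNLS clone 3 or ΔNLS clone 4 (adjusted p = 0.0712, 0.149 and 0.116). The ΔNLS clones were 0.42 ± 0.15 above the control, which missed the threshold as deposited (adjusted p = 0.0748) and passed after centring (0.61, adjusted p = 0.0253), without IL-33 clone 3 (adjusted p = 0.0497) and with only the groups compared (adjusted p = 0.0423). The mean of all probe sets gave 0.21, which did not pass, and the next probe set above background gave 0.06. The IL-33 clones were at -0.01 ± 0.14 from the control (adjusted p = 0.983).

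ERAP1 trims peptides in the endoplasmic reticulum to the length that class I molecules hold. It was at 6.59, 6.65 and 6.71 in IL-33 clones 3, 5 and 9, at 6.11 and 6.06 in ΔNLS clones 3 and 4, and at 6.60 in the control. The ΔNLS clones were below the other 4 arrays. ERAP1 was 1.48-fold higher in the IL-33 clones than in the ΔNLS clones (0.57 ± 0.09, adjusted p = 0.00496, limma), kept in 11 of 12 alternatives and lost with the mean of all probe sets (adjusted p = 0.104). Against the control the ΔNLS clones were at 0.70-fold (-0.51 ± 0.12, adjusted p = 0.0213), a call lost with the mean of all probe sets, with either scaling, and without ΔNLS clone 3 or ΔNLS clone 4 (adjusted p = 0.0521 and 0.0585). Its 3 probe sets above background on all arrays did not go the same way, with differences of -0.51 to 0.09 between ΔNLS clones and control. Nor did they between IL-33 and ΔNLS clones, where the brightest gave 0.57. The others gave -0.26 and -0.14 there, and neither of these passed in the fit over all probe sets. Another ERAP1 probe set was above background on 4 arrays and fell below it only for ΔNLS clones 3 and 4 (4.45 and 4.27). By the fit over all probe sets, its ΔNLS difference from the control was -1.51 (adjusted p = 0.00505, limma). Its difference between the constructs was 1.03 (adjusted p = 0.00484), and IL-33 clones against control did not pass (-0.48, adjusted p = 0.222). ERAP1 lies on chromosome 5, whose 516 other genes above background had a median of -0.12 and -0.20 from the control in ΔNLS clones 3 and 4.

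**Figure D4:**
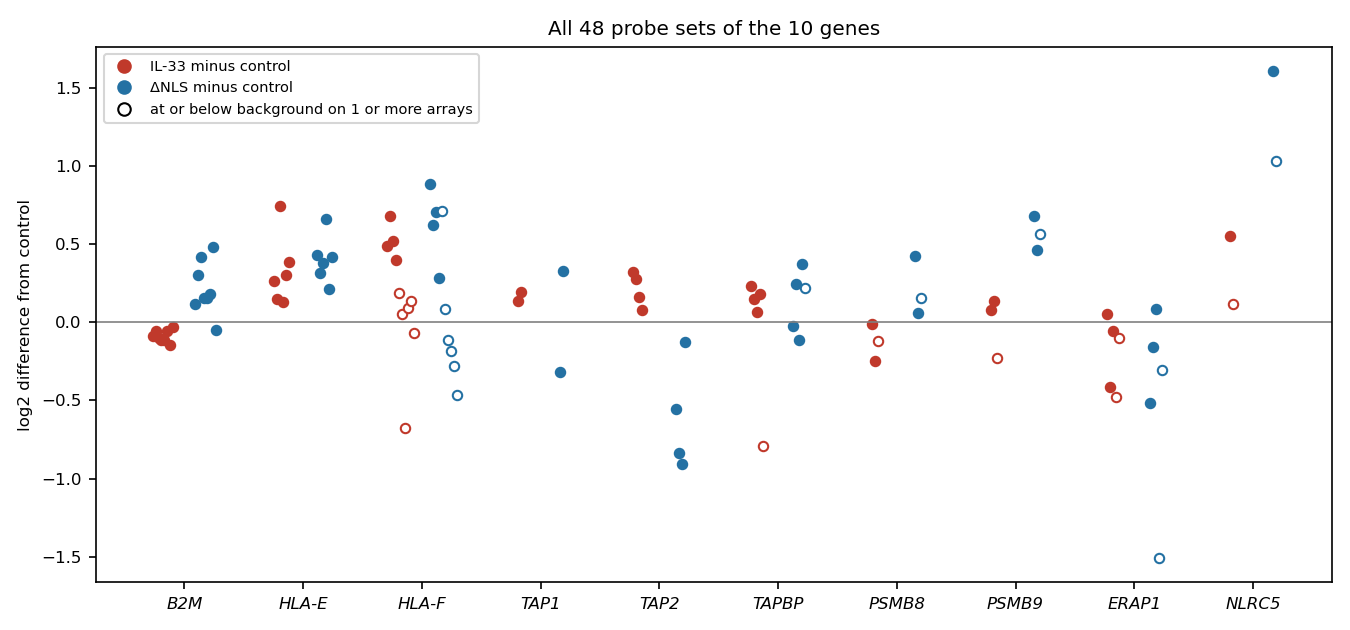
Log2 difference from the control (y axis) of each of the 48 probe sets of the 10 genes, for the means of the IL-33 clones (red) and of the ΔNLS clones (blue), with open points for probe sets at or below background on 1 or more arrays. All 4 TAP2 probe sets lie below 0 in the ΔNLS clones, and the 2 TAP1 probe sets lie on either side of it.

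Over the 48 probe sets, 36 were above background on all arrays and 9 on none. In the fit over all probe sets, 8 members' probe sets were higher and 5 lower in ΔNLS clones than in control, beside 39.4% of all probe sets that passed, 13.7% higher and 25.7% lower. Among the 36 above background on all arrays, 5 were higher and 4 lower. Between IL-33 clones and ΔNLS clones, 6 of the 48 were higher and 12 lower, beside 47% of all probe sets that passed, 31.8% higher and 15.2% lower. All members but B2M, ERAP1 and NLRC5 lie on chromosome 6. The 569 other genes of chromosome 6 above background had a median of 0.18, 0.135 and 0.099 above the control in IL-33 clones 3, 5 and 9. In ΔNLS clones 3 and 4 it was 0.01 and -0.03. Over all chromosomes the medians were 0.03, 0.06 and 0.03 in the IL-33 clones and -0.02 and -0.03 in the ΔNLS clones. The part of a chromosome-wide shift in the members' differences was not tested.

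HLA-B and HLA-C, classical heavy chains that present to CD8+ T cells and were taken from a list of further pathway genes, set IL-33 clone 5 apart. HLA-B was at 11.43, 10.02 and 11.52 in IL-33 clones 3, 5 and 9, at 11.87 and 11.88 in ΔNLS clones 3 and 4, and at 11.19 in the control. HLA-C was at 9.66, 8.36 and 9.64 in IL-33 clones 3, 5 and 9, at 10.42 and 10.57 in ΔNLS clones 3 and 4, and at 9.63 in the control. For both genes IL-33 clone 5 was the lowest array, by over 1 on the log2 scale, and the ΔNLS clones were the highest. IL-33 clone 5 was also the lowest array for all 8 B2M probe sets, at -0.41 to -0.23 from the control, and for 3 of 6 HLA-E probe sets. These 3 carry the x mark, and on the HLA-E probe sets without it the control was the lowest array. For HLA-C the IL-33 clones were lower than the ΔNLS clones (-1.27 ± 0.41, adjusted p = 0.0461, limma), which was kept in 6 of 11 alternatives, with an adjusted p of 0.00327 to 0.269. The call did not hold without IL-33 clone 9 (adjusted p = 0.0559), ΔNLS clone 3 (0.228) or ΔNLS clone 4 (0.269). HLA-B missed the threshold in that comparison (-0.88 ± 0.45, adjusted p = 0.156), though it passed without IL-33 clone 5 (-0.40, adjusted p = 0.00836) and without the probe sets marked x, which left a probe set above background on 1 array (-0.48). Neither gene passed against the control with all arrays in the fit. In ΔNLS clones against control the differences were 0.69 for HLA-B and 0.86 for HLA-C, and both passed without IL-33 clone 5 (adjusted p = 0.00458 and 0.00491) and with only the ΔNLS and control arrays, the 2 alternatives of 12 for HLA-B and of 11 for HLA-C in which they did. Without IL-33 clone 5 the difference of the IL-33 clones from the control turned to 0.29 for HLA-B and 0.02 for HLA-C, against -0.19 and -0.41 with it. The HLA-B and HLA-C probe sets above background carry the x mark and can pick up other class I transcripts.

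**Figure D5:**
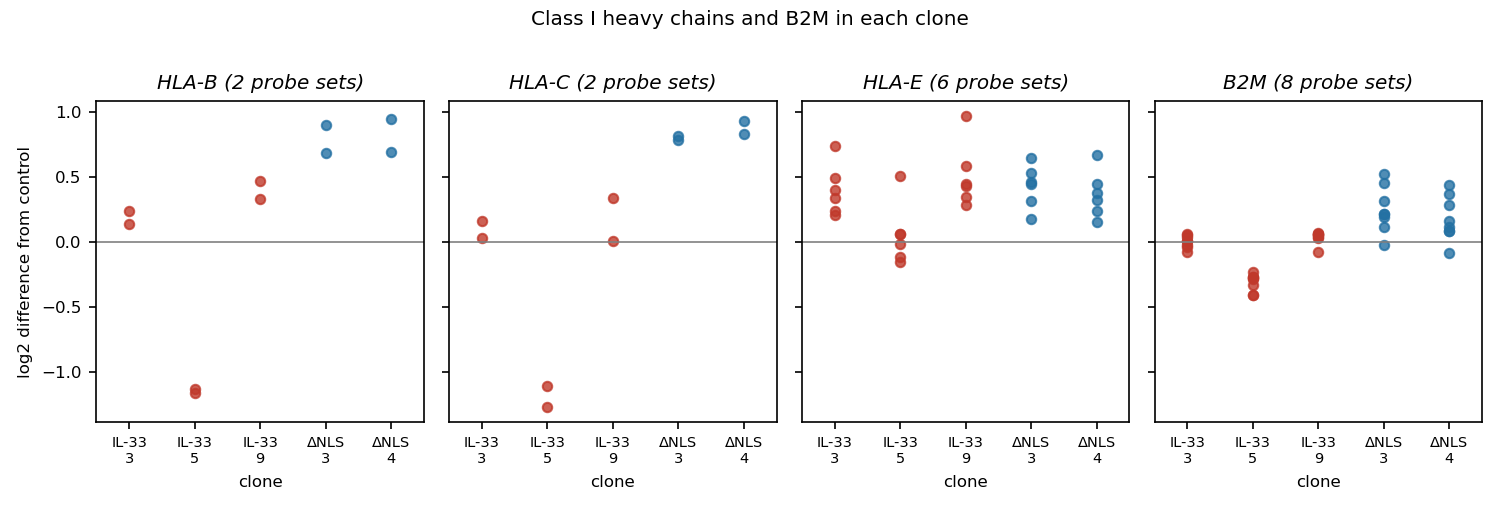
Log2 difference from the control (y axis) in each clone for the probe sets above background of HLA-B, HLA-C, HLA-E and B2M, 1 point per probe set. IL-33 clone 5 lies below the control by more than 1 for HLA-B and HLA-C and by 0.23 to 0.41 for B2M, and the ΔNLS clones lie above the control for HLA-B, HLA-C and HLA-E.

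Beside the members, 60 further genes of the pathway, listed by role, were measured. In the IL-33 clones 4 of the 60 were higher than in the control, 3 were lower and 53 did not pass. In the ΔNLS clones 9 were higher, 12 were lower and 39 did not pass, and between IL-33 and ΔNLS clones 19 were higher, 13 were lower and 28 did not pass. The shares of all genes given above for these comparisons are the background for these counts. All 7 calls of IL-33 clones against control in these lists were lost without ΔNLS clone 3, without ΔNLS clone 4 and with only the groups compared, settings in which no gene of the array passed. Without either ΔNLS clone their adjusted p was 0.103 to 0.134.

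Among the interferon-inducible parts of the proteasome, PSME1 and PSME2, subunits of the PA28 activator, were lower in the IL-33 clones than in the control. PSME2 was at 8.96, 8.83 and 8.75 in IL-33 clones 3, 5 and 9, at 9.00 and 8.89 in ΔNLS clones 3 and 4, and at 9.95 in the control. All 5 clones were below the control, with a log2 difference of -1.11 ± 0.13 in the IL-33 clones (adjusted p = 0.0124, limma) and of -1.01 ± 0.13 in the ΔNLS clones (adjusted p = 0.00443). PSME1 was lower in the IL-33 clones (-0.61 ± 0.11, adjusted p = 0.0353, and 0.0564 without IL-33 clone 3 and 0.0864 without IL-33 clone 9), with a difference of -0.20 ± 0.12 in the ΔNLS clones (adjusted p = 0.236). PSMB10, the third catalytic subunit of the immunoproteasome, was at 8.35, 8.41 and 8.18 in IL-33 clones 3, 5 and 9, at 8.81 and 8.88 in ΔNLS clones 3 and 4, and at 8.39 in the control. It had the order of PSMB8 and PSMB9, was lower in the IL-33 clones than in the ΔNLS clones (-0.53 ± 0.10, adjusted p = 0.00983), and passed just under the threshold in ΔNLS clones against control (0.45 ± 0.14, adjusted p = 0.0496, kept in 7 of 12 alternatives). Without ΔNLS clone 3 or ΔNLS clone 4 the adjusted p of PSMB10 was 0.0654 and 0.0801 between the constructs and 0.125 and 0.154 against the control, where leaving out IL-33 clone 3 or IL-33 clone 9 also ended the call (0.0758 and 0.0510). Of their constitutive counterparts, PSMB7 was higher in the ΔNLS clones than in the control (0.36 ± 0.08, adjusted p = 0.0196, sign turned with averaged probe sets), PSMB5 and PSMB6 did not pass, and none of these 3 passed between the constructs.

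Of 14 other proteasome genes measured, the IL-33 clones had 2 higher and 0 lower than the control, and the ΔNLS clones had 5 higher and 3 lower. PSMA5, a subunit of the outer ring, was at 10.6, 10.9 and 10.8 in IL-33 clones 3, 5 and 9, at 11.7 and 11.7 in ΔNLS clones 3 and 4, and at 9.80 in the control. It was higher in the IL-33 clones (0.97 ± 0.13, adjusted p = 0.0181, limma, and 0.0665 without IL-33 clone 9) and in the ΔNLS clones (1.87 ± 0.14, adjusted p = 0.00135). POMP, the assembly chaperone of the proteasome, was higher in the ΔNLS clones than in the control (0.90 ± 0.11, adjusted p = 0.00365). PSME4, an alternative activator, was lower there (-1.02 ± 0.17, adjusted p = 0.00800, and 0.05996 without ΔNLS clone 4).

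Among 6 measured genes of loading and of quality control in the endoplasmic reticulum, CALR, which encodes the chaperone calreticulin of the loading complex, stood out between the constructs. CALR was at 9.28, 9.47 and 9.66 in IL-33 clones 3, 5 and 9, at 7.70 and 7.96 in ΔNLS clones 3 and 4, and at 9.32 in the control. The ΔNLS clones were below all other arrays, with a difference of -1.49 ± 0.19 from the control (adjusted p = 0.00431, limma) and of 1.64 ± 0.15 for IL-33 clones against ΔNLS clones (adjusted p = 0.00121). UGGT1, which returns unfolded glycoproteins to the chaperones, was lower than in the control in the IL-33 clones (-0.83 ± 0.16, adjusted p = 0.0369, and 0.0992 without IL-33 clone 9) and in the ΔNLS clones (-1.01 ± 0.17, adjusted p = 0.00765, and 0.0613 and 0.0561 without ΔNLS clones 3 and 4). ERAP2, the second trimming aminopeptidase, was higher in the IL-33 clones than in the ΔNLS clones by 0.80 ± 0.11 (adjusted p = 0.00314), in the same direction as the brightest probe set of ERAP1. PDIA3, which holds tapasin in the loading complex, did not pass in any comparison. Of 6 cytosolic peptidases, TPP2 was higher in the IL-33 clones than in the control (0.82 ± 0.14, adjusted p = 0.0309, and 0.0778 without IL-33 clone 9), and LAP3 was lower in the ΔNLS clones (-1.08 ± 0.18, adjusted p = 0.00843, and 0.0660 and 0.0686 without ΔNLS clones 3 and 4).

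Of 22 measured regulators, 1 was higher in the IL-33 clones than in the control and 0 were lower, and 2 were higher and 4 lower in the ΔNLS clones. RFXAP, a subunit of the RFX complex that binds class I and class II promoters beside NLRC5, was at 6.54, 6.22 and 6.65 in IL-33 clones 3, 5 and 9, at 7.42 and 7.03 in ΔNLS clones 3 and 4, and at 5.29 in the control. Its groups were ordered as those of NLRC5, with differences from the control of 1.18 ± 0.23 in the IL-33 clones (adjusted p = 0.0376, limma, and 0.0675 and 0.0966 without IL-33 clones 3 and 9) and 1.94 ± 0.24 in the ΔNLS clones (adjusted p = 0.00382). RFX5, the partner subunit that touches DNA, did not pass in any comparison, with differences of 0.18 ± 0.12 in the IL-33 clones and 0.01 ± 0.13 in the ΔNLS clones from the control. CREB1, which binds the cyclic AMP response element, was lower in the ΔNLS clones than in the control (-0.77 ± 0.15, adjusted p = 0.0135, and 0.0625 and 0.0767 without ΔNLS clones 3 and 4). NFKB1, a subunit of NF-κB, was lower there too (-0.47 ± 0.14, adjusted p = 0.0449, kept in 5 of 12 alternatives and lost without any 1 clone but IL-33 clone 5, at 0.0634 to 0.124), and was higher in the IL-33 clones than in the ΔNLS clones by 0.92 ± 0.11 (adjusted p = 0.00207). IRF1, the interferon-induced factor that acts on many class I pathway genes, was at 7.25, 7.39 and 7.39 in IL-33 clones 3, 5 and 9, at 7.11 and 6.92 in ΔNLS clones 3 and 4, and at 7.38 in the control, and did not pass in any comparison. The interferon genes IFNB1 and IFNG were below background on every array.

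For the 3 members with the widest range over the arrays, the genes with the most similar profile were taken from all 18132, by the mean absolute difference between profiles centred on their own mean over the 6 arrays. For NLRC5 these were HOOK2 (0.0405), RAI1 (0.0553) and CCDC177 (0.0725). For HLA-F they were PPP3CC (0.0564), FAM76B (0.0695) and RNFT1 (0.0709), and for TAP2 they were KSR2 (0.0299), SHC2 (0.0314) and CIRSR (0.0366). None of these 9 genes is a member or stands in the lists above. HOOK2 was at 6.44, 6.39 and 6.20 in IL-33 clones 3, 5 and 9, at 7.34 and 7.44 in ΔNLS clones 3 and 4, and at 5.93 in the control. With 6 arrays in 3 groups, many genes can share such a profile, and KSR2, SHC2 and CCDC177 were below background on every array.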

How the data were processed

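The authors hybridized labelled total RNA of U87 cells to 6 arrays. The deposited values are log2 intensities, normalized by the authors, with 1 value per probe set and array. The submitters' processing notes name Partek 6.0. For the background correction, the normalization and the log base, the method is not given in the sources used here. Since the highest value, 14.16, was above the natural log of a scanner's largest reading, 11.09, base 2 was taken. A shift in scaling between arrays would move all genes of an array together. Arrays have no read depth, and their number limits the precision. The study's methods name a count test, which these values do not allow. Instead limma 3.58.1 (R 4.3.3, lmFit, eBayes with trend) was fitted to all 6 arrays with 3 group means (3 residual and 2.81 prior degrees of freedom), with Benjamini-Hochberg adjustment over 18132 genes, a two-sided threshold of 0.05, and for probe sets over 49395. The script was tested on simulated data. Of the probe sets, 44994 had 1 symbol, 1832 had several and 2569 had none. RefSeq named 18111 of the genes. The members and the gene lists were chosen with earlier results of these data known, so no p-value over a list is given. Named were all members, genes of fixed lists that passed (at most 6 a list by p) or pair with a member by role, and the 3 nearest profiles of 3 members. Alternatives were other array scalings, probe set rules, filters, moderation, thresholds and leaving out each clone.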

Additional observations from a re-analysis of the deposited data

Results flagged for a closer look

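For TAP1 and TAP2, which encode the peptide transporter, every IL-33 clone lay above the control array and every ΔNLS clone below it. Over all genes, 38.7% lay wholly above the control in the IL-33 clones and 51.4% wholly below it in the ΔNLS clones. The share of genes with both was not counted. These genes were flagged for this order, so the same values set the direction of the next test, which is no separate support. The difference between the constructs was tested directly as IL-33 clones against ΔNLS clones and came to 0.46 ± 0.10 on the log2 scale for TAP1 (adjusted p = 0.0159, limma) and 0.88 ± 0.10 for TAP2 (adjusted p = 0.00195). All 4 probe sets of TAP2 had this order of group means. The second probe set of TAP1 did not, since its ΔNLS clones were 0.33 above the control. The ΔNLS arrays also had another distribution of values than the control and IL-33 arrays, and its part in these differences cannot be told apart from that of the construct.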

How the results depend on the processing

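No paired analysis was possible because the IL-33 and ΔNLS groups share only the clone number 3, the control has 1 array, and a clone number names a separate transfectant in each group. For IL-33 clones against control, no member passed under any of 13 alternatives, and the median difference over the members was 0.163 to 0.204 over the settings that left out a clone and 0.081 from averaged probe sets, against 0.184 as reported. For ΔNLS clones against control, 5 members passed. With each clone left out in turn, 1 to 6 passed, and the 1 that passed without ΔNLS clone 3 or ΔNLS clone 4 was NLRC5. The median then lay between 0.224 and 0.288. Averaged probe sets gave 3 calls and a median of 0.217, NLRC5 was the 1 call at 2-fold and an adjusted p under 0.01, and the median was 0.457 after centring the arrays. For IL-33 clones against ΔNLS clones, 6 members passed. With each clone left out 3 to 6 passed, with 3 left without ΔNLS clone 4, and the median lay between -0.264 and -0.0728. At 2-fold and an adjusted p under 0.01, 1 passed. That median was -0.124 from averaged probe sets, -0.0752 after quantile normalization, -0.373 after centring and 0.158 without the probe sets marked x, an alternative chosen after seeing the data.

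Signs turned in differences that had not passed, except for PSMA1 between the constructs and HFE and PSMB7 in ΔNLS clones against control. With averaged probe sets, IL-33 against control turned to -0.0327 for TAPBP, -0.0026 for PSMB9 and -0.199 for ERAP1, ΔNLS against control to 0.0054 for TAP1, 0.141 for TAPBP and -0.0878 for PSMB7, and IL-33 against ΔNLS to -0.174 for TAPBP, -0.554 for PSMA1 (adjusted p = 0.00473) and 0.194 for PSMB7. After quantile normalization, IL-33 against control turned to 0.0096 for PSMB8, ΔNLS against control to -0.133 for B2M and 0.0205 for TAPBP, and IL-33 against ΔNLS to 0.0418 for B2M and 0.0209 for PSMB7. After centring, ΔNLS against control turned to 0.165 for TAPBP and 0.126 for PSMB6, and IL-33 against ΔNLS to -0.0946 for PSMB6 and -0.0229 for RFX5. Without the probe sets marked x, IL-33 against ΔNLS turned to 0.361 for HLA-E and 0.0625 for HLA-F, and ΔNLS against control to 0.111 for HFE. With 1 clone left out at a time, the difference of IL-33 clones from control ran over 0 in 7 genes. It spanned -0.145 to 0.007 for B2M, -0.0974 to 0.0426 for PSMB8, -0.0338 to 0.182 for PSMB9, -0.0638 to 0.0051 for IRF1, -0.166 to 0.0929 for PDIA3, -0.459 to 0.289 for HLA-B and -0.630 to 0.0207 for HLA-C. The ΔNLS difference of TAPBP from control spanned -0.152 to 0.109. The cause was not tested, beyond the choice of probe sets, scaling or clones that each alternative makes. The chosen probe sets of all members were above background, so setting dim means to background moved none of them.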
